A study of Mus musculus with 8 samples.

Results

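The probes with a lower signal intensity in the arcuate nucleus (Arc) than in the other hypothalamic nuclei measured, the ventromedial (VMH), dorsomedial (DMH), and lateral (LH) nuclei, are described here. A probe belonged to them when Agilent's software called it well above background on all 6 arrays of the VMH, DMH, and LH and when its signal on both Arc arrays was lower than on each of those 6 arrays. Of 55681 probes with 37147 distinct names on the array, 23128 met the requirement on background, and 2999 of these (12.97%) were lower on both Arc arrays. They carried 2625 distinct names, of which 2127 were gene symbols, so 18.8% of the 11318 named genes with a probe that could qualify had at least 1 such probe. Because the probes were chosen by these same signals, the shortfall in the Arc is given as a description without a test, and nothing is read from these shares. Tests are limited to differences among the VMH, DMH, and LH, where the rule treated the 6 arrays alike apart from requiring each of them to exceed the Arc.

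All samples came from C57BL/6 female mice (C57BL/6J in the methods) at 3 months of age that carried no other label of treatment or genotype, and each nucleus was cut out of brain sections by laser microdissection and measured on 2 arrays, Arc1 and Arc2, VMH1 and VMH2, DMH1 and DMH2, and LH1 and LH2. The methods name 2 mice for the microdissection, and the labels do not say which array came from which mouse, so the spread between the 2 arrays of a nucleus may be partly technical. The RNA was amplified to cDNA over the whole transcriptome, and the cDNA was labelled. All signal intensities below are the processed signals divided by the 75th percentile of their array, and a pair of values for a nucleus is in the order of array 1 and array 2. Genes that follow in a group are given by their ratio or range alone. Where a list count has no other share beside it, 18.8% of all named genes were low and 10.9% were high. A signal is called not measured on an array when it was not well above background there. A ratio is the mean of the means of the VMH, DMH, and LH over the mean of the Arc. Where neither Arc array measured a probe, the ratio is replaced by a lower bound. For the bound, dim Arc signals are raised to the lowest measured signal of the array. Bounds use geometric means over the arrays and ratios arithmetic ones, so the 2 are not on the same scale. A microdissected nucleus is a mixture of cells, in which fewer cells of a type and less RNA per cell cannot be told apart.

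The labels of the nuclei were checked against genes that define their neurons. *Agrp*, *Npy*, *Pomc*, *Kiss1*, and *Ghrh*, neuropeptide genes of the Arc, had a summed signal of 145910 to 155250 on the Arc arrays and of 3453 to 6017 on the others, and all 5 were measured on all 8 arrays. The steroidogenic factor gene *Nr5a1* and *Fezf1* of the VMH summed to 19750 and 17676 on the VMH arrays and to 355 to 775 elsewhere. *Prdm13*, *Grp*, and *Npvf* of the DMH summed to 8377 and 11001 on the DMH arrays and to 89.5 to 923 elsewhere, where the value of 923 was on LH1. *Hcrt* and *Pmch* of the LH summed to 123620 and 133750 on the LH arrays but also to 72193 and 62914 on the DMH arrays, so this pair set the LH less apart, and to 286 to 4623 elsewhere. The share of spots well above background was 47.1 to 52.7% and no spot was saturated, with 0 on each array. Arrays of a nucleus correlated at 0.971 to 0.981 over the probes, except for the LH at 0.938, and LH2 correlated with DMH2 at 0.954. Without the scaling the median log2 difference of the other nuclei from the Arc over the 23128 probes was 0.30, and with it -0.01, so every level below is relative to the array's own 75th percentile.

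The Arc borders the third ventricle and the median eminence and houses the neurons that make Agrp and Npy or Pomc and sense circulating signals of energy state, and tanycytes line its ventricular wall. The VMH is known as a largely glutamatergic nucleus of energy and glucose balance, the DMH for thermoregulation and rhythms of activity and feeding, and the LH for its melanin-concentrating hormone and orexin neurons and for the myelinated fibers that run through it. A low signal in the Arc can thus concern genes of neurons that lie elsewhere, of glial cells, or of receptors and channels that neurons of all these nuclei share to different degrees.

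Most shortfalls were small. The count of 2999 became 5250 without the second Arc array. It was 4505 without both DMH arrays, a choice made after seeing the data, and 5742 without the scaling between arrays. Leaving out arrays relaxes the rule and keeps all 2999 probes, so those counts could only rise. Of the named genes that could qualify, 35.2% were low without the scaling, 31.4% without Arc2, 24.1% without Arc1 and likewise without DMH1, 19.9% without VMH1, and 20.6% without VMH2. The ratio of the other nuclei to the Arc had a median of 1.64 over the 2999 probes, with quartiles of 1.42 and 2.13, and ran from 1.08 to 257. It was at least 2 for 867 probes, at least 4 for 180, and at least 10 for 29. On the log2 scale the median difference was 0.69, against -0.01 over all 23128 probes. The signal was measured on both Arc arrays for 2760 of the probes, on 1 Arc array for 82, and on neither for 157. At the edge of the rule, the closest probes inside were those of *Cap2*, whose higher Arc signal of 5194.4 faced a lowest other signal of 5194.7, and *Ppm1b*, with 15914 against 15918. Just outside lay *Rbm33*, with 408.37 against 408.31, and *Tmed9*, with 23738 against 23730. Applied to the other nuclei, the same rule found 1903 low probes for the VMH (8.23%), 684 for the DMH (3.01%), and, in the LH, 2370 (9.83%), and on the high side of the Arc it found 2472 of 25751 probes (9.60%), with 1324 of 12176 named genes (10.9%).

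**Figure D1:**
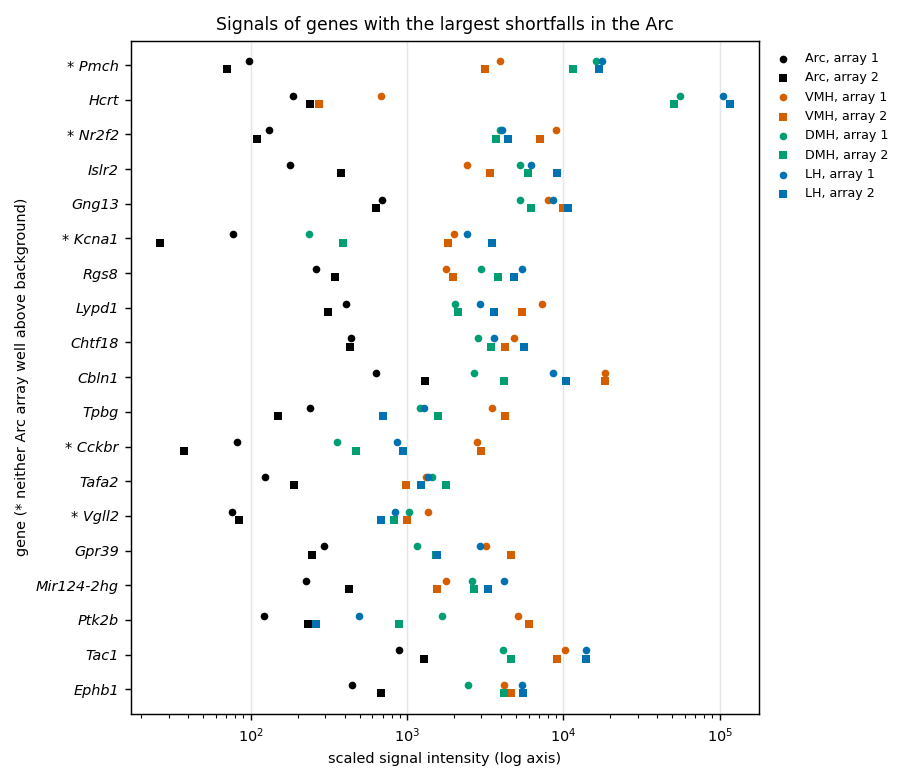
Scaled signal intensity (log axis) of genes among the 20 named ones with the largest log2 shortfall in the Arc, 1 probe per gene, with circles for array 1 and squares for array 2 of each nucleus and an asterisk where neither Arc array was well above background. The Arc signals of *Pmch* were 97.5 and 71.1 against at least 3140 elsewhere, while *Hcrt* on VMH2, at 275, came close to the Arc signals.

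The largest shortfalls belonged to neuropeptide precursor genes. *Pmch*, which encodes the precursor of melanin-concentrating hormone, gave 97.5 and 71.1 on the Arc arrays, 3938 and 3140 on the VMH arrays, 16253 and 11631 on the DMH arrays, and 17650 and 17005 on the LH arrays. Neither Arc signal was measured, and the other nuclei were at least 83.3-fold higher. Among those nuclei the VMH was lowest, and by limma the LH exceeded it by 2.30 ± 0.27 (SE, adjusted p = 0.0069) on the log2 scale. *Hcrt*, the precursor of the orexins, gave 188 and 241 in the Arc, 684 and 275 in the VMH, 55940 and 51283 in the DMH, and 105970 and 116750 in the LH, with a ratio of 257. The ratio of *Hcrt* rested on the DMH and LH alone, and its lower VMH array exceeded the higher Arc array by 275 to 241. By limma, the DMH exceeded the VMH by 6.95 ± 0.41 (SE, adjusted p = 0.00081) on the log2 scale and the LH exceeded the VMH by 8.0 ± 0.41 (SE, adjusted p = 0.00039), whereas the LH and DMH did not pass the threshold against each other (adjusted p = 0.29).

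*Tac1*, the precursor of substance P and neurokinin A, gave 894 and 1295 in the Arc, 10309 and 9184 in the VMH, 4124 and 4605 in the DMH, and 14004 and 13945 in the LH, a ratio of 8.55. Its DMH arrays lay between the Arc and the other nuclei, and the LH exceeded the DMH by 1.68 ± 0.24 (SE, adjusted p = 0.037) in limma's test. *Adcyap1*, which encodes the peptide PACAP, gave 1094 and 637 in the Arc, 17586 and 18972 in the VMH, 2399 and 2821 in the DMH, and 2143 and 2607 in the LH. The VMH stood above all others, with a log2 difference from the DMH of 2.81 ± 0.29 (SE, adjusted p = 0.0064) and from the LH of 2.95 ± 0.29 (SE, adjusted p = 0.004). *Bdnf*, a neurotrophin gene of excitatory neurons, gave 92.2 and 35.1 in the Arc, neither measured, against 1730 and 1735 in the VMH, 275 and 492 in the DMH, and 590 and 498 in the LH, which was at least 6.20-fold. These 5 were the only low genes among 28 precursor and trophic factor genes that could qualify (17.9%, near the 18.8% of all named genes), and 14 of 30 such genes were on the high side of the Arc (10.9% of all named genes). The median log2 difference over the 28 probes of the list was -0.06, and the count of low genes was 8 without Arc1 and also without VMH2, where 24.1% and 20.6% of all named genes were low, and without both VMH arrays it was 13 of 34 (38.2%), where 23.8% of all named genes were low.

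Receptors for neuropeptides were low in the Arc in 6 of 27 cases (22.2%, near the 18.8% of all named genes). They were high in 11 of 37 (against 10.9%), with a median log2 difference of 0.03 over 32 probes. *Cckbr*, the cholecystokinin B receptor, gave 82.0 and 37.7 in the Arc, 2790 and 3000 in the VMH, 356 and 473 in the DMH, and 869 and 948 in the LH, and the others were at least 9.06-fold higher than the unmeasured Arc. Both of its probes were low in the Arc, and the VMH exceeded the DMH by 2.82 ± 0.37 (SE, adjusted p = 0.014). *Hcrtr1*, a receptor for the orexins, gave 370 and 444 in the Arc, 4169 and 3838 in the VMH, 563 and 869 in the DMH, and 1838 and 1689 in the LH. The VMH had the highest signal of this receptor, 2.52 ± 0.26 (SE, adjusted p = 0.0061) above the DMH and 1.18 ± 0.26 (SE, adjusted p = 0.049) above the LH on the log2 scale, while its ligand gene *Hcrt* was lowest in the VMH of the 3 nuclei. *Trhr*, the receptor for thyrotropin-releasing hormone, had the opposite order, with 407 and 681 in the Arc and 1616 and 1073 in the VMH against 4612 and 4136 in the DMH and 4003 and 4736 in the LH. Its DMH exceeded its VMH by 1.73 ± 0.32 (SE, adjusted p = 0.049), and its LH exceeded its VMH by 1.73 ± 0.32 (SE, adjusted p = 0.029). *Oprd1*, the delta opioid receptor, had a ratio of 3.33 with the VMH highest, and the neurotensin receptor genes *Ntsr1* and *Ntsr2* had ratios of 4.15 and 1.5.

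Of the transcription factor genes, *Nr2f2* had the largest shortfall. *Nr2f2*, which encodes the orphan nuclear receptor COUP-TFII, gave 131 and 110 in the Arc, 9000 and 7114 in the VMH, 3927 and 3706 in the DMH, and 4074 and 4426 in the LH. Neither Arc array measured it, the other nuclei were at least 39.3-fold higher, and no difference among them passed the threshold, with limma adjusted p of 0.067, 0.06, and 0.75. Its paralog *Nr2f1*, COUP-TFI, was measured in the Arc at 332 and 255, against 1859 and 1194 in the VMH, 1673 and 1655 in the DMH, and 1361 and 1710 in the LH, with a ratio of 5.37, and both of its probes were low. Of 27 nuclear receptor genes, 9 were low (33.3%) and 4 of 29 were high, and the median log2 difference over 35 probes was 0.08. Besides the COUP-TF genes, those with the largest differences were *Esrra*, *Ppara*, *Thra*, and *Rora*. *Esrra*, *Thra*, and *Rora* had ratios of 2.33, 1.69, and 1.64, and one *Ppara* probe, not measured in the Arc, was at least 2.39-fold higher elsewhere while the other had a ratio of 0.996. *Esrra*, an orphan receptor that controls genes of mitochondrial metabolism, was highest in the LH, 1.36 ± 0.19 (SE, adjusted p = 0.012) above the VMH and 1.42 ± 0.19 (SE, adjusted p = 0.032) above the DMH.

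Among homeobox and other patterning factors 9 of 40 were low (22.5%, against 18.8% of all named genes) and 16 of 53 were high (against 10.9%). Without the VMH arrays, a rule that keeps every low gene by construction, 22 of 53 were low (41.5%), against 23.8% of all named genes. *Foxb1*, a forkhead factor of the developing hypothalamus, gave 94.8 and 34.1 in the Arc, neither measured, against 408 and 425 in the VMH, 648 and 910 in the DMH, and 1396 and 1223 in the LH. *Zic1*, a zinc-finger factor of neural patterning, gave 151 and 134 in the Arc and 155 and 190 in the VMH, then 306 and 498 in the DMH and 2361 and 2133 in the LH. The VMH barely exceeded the Arc for *Zic1*, and the LH exceeded the VMH by 3.71 ± 0.28 (SE, adjusted p = 0.0016) and the DMH by 2.52 ± 0.28 (SE, adjusted p = 0.02). *Nkx2-2*, a homeobox factor of the ventral neural tube, had a ratio of 3.01, with 1232 and 1144 in the Arc against at least 2367 elsewhere, and *Meis1*, *Irx1*, and *Tshz1* had ratios of 2.92, 2.65, and 2.27. *Vgll2*, a cofactor of TEAD transcription factors, lay outside these lists and gave 76.0 and 84.0 in the Arc, neither measured, against 681 to 1359 on the other arrays, at least 8.26-fold.

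Genes of proteins that organize synapses were low in the Arc in 17 of 40 cases (42.5%, against 18.8% of all named genes). They were high in 1 of 40 (against 10.9%), with a median log2 difference of 0.46 over 59 probes. *Cbln1*, a secreted protein that joins presynaptic neurexins to postsynaptic delta glutamate receptors, gave 634 and 1298 in the Arc, 18430 and 18611 in the VMH, 2670 and 4177 in the DMH, and 8562 and 10475 in the LH. The VMH was highest and exceeded the DMH by 2.47 ± 0.38 (SE, adjusted p = 0.025). *Nptx2*, a pentraxin that clusters AMPA receptors, gave 387 and 376 in the Arc, 6115 and 7323 in the VMH, 1240 and 952 in the DMH, and 2081 and 1816 in the LH. It too was highest in the VMH, 2.62 ± 0.22 (SE, adjusted p = 0.0032) above the DMH and 1.78 ± 0.22 (SE, adjusted p = 0.0085) above the LH, and both of its probes were low in the Arc. *Flrt2*, *Lingo2*, *Lgi2*, and *Slitrk5*, which encode leucine-rich repeat proteins, had ratios of 4.03, 3.88, 3.1, and 2.46.

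*Islr2*, a leucine-rich repeat protein of growing axons, gave 178 and 377 in the Arc against 2416 and 3391 in the VMH, 5328 and 5946 in the DMH, and 6184 and 9107 in the LH. *Lypd1*, an anchored protein that modulates nicotinic receptors, gave 405 and 313 in the Arc against 7291 and 5464 in the VMH, 2024 and 2125 in the DMH, and 2926 and 3609 in the LH. The LH was the highest nucleus for *Islr2* and the VMH for *Lypd1*, and the VMH exceeded the DMH for *Lypd1* by 1.61 ± 0.25 (SE, adjusted p = 0.025). *Tpbg*, a membrane glycoprotein, gave 239 and 149 in the Arc against 3499 and 4240 in the VMH, 1220 and 1582 in the DMH, and 1292 and 700 in the LH. *Tafa2*, of a family of small secreted proteins, gave 125 and 191 in the Arc, measured on 1 array, against 981 to 1783 on the other arrays. Its relative *Tafa1*, which was not among the 20 genes with the largest shortfall, had 71.6 and 62.0 in the Arc, neither measured, 1090 and 1090 in the VMH, 108 and 107 in the DMH, and 180 and 313 in the LH. *Tafa2* was nearly level among the other nuclei, whereas *Tafa1* was 3.34 ± 0.28 (SE, adjusted p = 0.0032) higher in the VMH than in the DMH and 2.20 ± 0.28 (SE, adjusted p = 0.0091) higher than in the LH.

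Axon guidance genes contributed 16 low genes of 51 (31.4%, against 18.8% of all named genes) and 9 high genes of 52 (against 10.9%). Their median log2 difference was 0.12. *Ephb1*, a receptor for ephrin-B ligands, gave 447 and 684 in the Arc, 4166 and 4604 in the VMH, 2466 and 4180 in the DMH, and 5437 and 5534 in the LH, a ratio of 7.78. *Epha8*, a receptor for ephrin-A ligands, gave 33.8 and 31.2 in the Arc, neither measured, and 290 to 1014 elsewhere, at least 4.25-fold. The semaphorin genes *Sema3c* and *Sema3f* had ratios of 4.64 and 4.12 and both were higher in the LH than in the VMH, by 1.56 ± 0.27 (SE, adjusted p = 0.024) and 1.00 ± 0.22 (SE, adjusted p = 0.048). *Ntng1*, a netrin-related membrane protein, had a ratio of 4.23, and *Plxnb3*, a plexin of oligodendrocytes, was at least 2.57-fold lower in the unmeasured Arc. Cadherins and protocadherins had 9 low genes of 28 (32.1%) and 4 high genes of 29, among them *Pcdh18*, *Pcdh8*, and *Cdh20* on the low side with ratios of 3.54, 3.04, and 3.02, and without Arc2, where 31.4% of all named genes were low, 14 of these genes were.

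GABA and glycine receptor genes were low in the Arc in 7 of 17 cases (41.2%, against 18.8% of all named genes). They were high in 2 of 17 (against 10.9%), with a median log2 difference of 0.45 over 25 probes. *Gabrb2*, the beta 2 subunit of the GABA-A receptor, gave 2432 and 2689 in the Arc, 11560 and 11572 in the VMH, 10515 and 10798 in the DMH, and 15663 and 17859 in the LH, with a ratio of 5.07. The other nuclei were close to each other for this subunit, and none of their differences passed the threshold. *Gabra4* had a ratio of 1.77, and *Gabbr2* of the GABA-B receptor had 1 of 3 probes low, at 1.5. The glycine receptor gene *Glra1* gave 667 and 1096 in the Arc, 6320 and 8264 in the VMH, 1746 and 1833 in the DMH, and 3434 and 3328 in the LH, with the VMH above the DMH by 2.01 ± 0.28 (SE, adjusted p = 0.018).

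**Figure D2:**
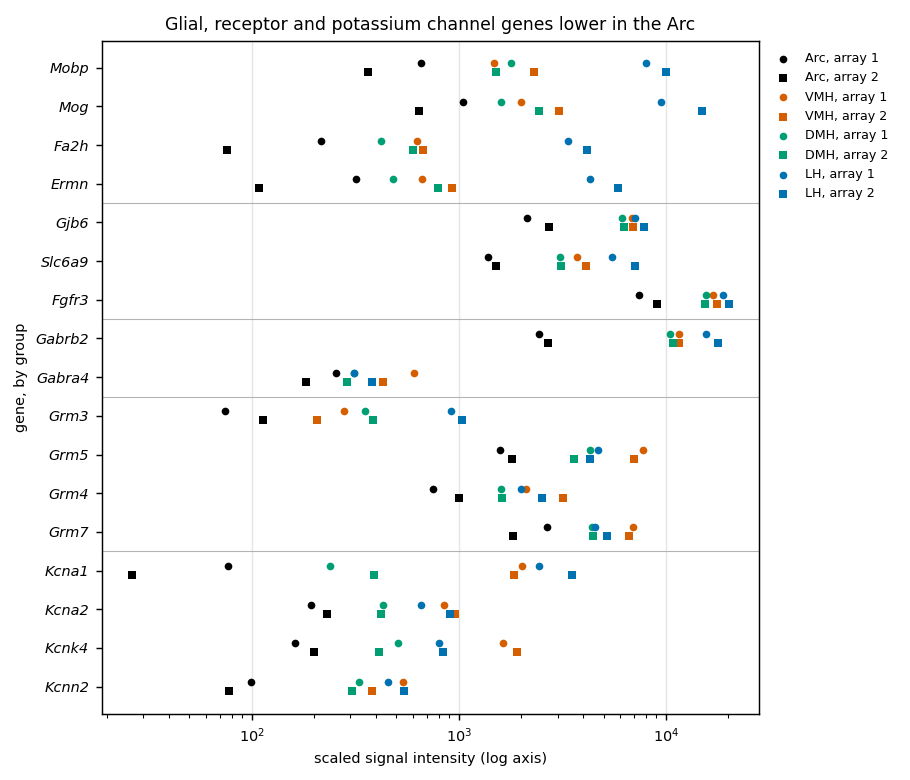
Scaled signal intensity (log axis) on each array for low genes of 5 groups, from top to bottom myelin, astrocytes, GABA-A receptors, metabotropic glutamate receptors, and potassium channels, with circles for array 1 and squares for array 2. The LH lies apart from the VMH and DMH for the myelin genes, as for *Mobp* with 8046 and 10045 on its arrays, and the 3 nuclei lie close together for *Gabrb2*.

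Metabotropic glutamate receptors and the Homer scaffold genes that anchor them had the largest share of low genes among the lists. In the Arc, 8 of 10 were low (80%, against 18.8% of all named genes) and 1 of 9 high (against 10.9%). Their median log2 difference over 16 probes was 0.87. *Grm3* gave 74.4 and 114 in the Arc, neither measured, 280 and 207 in the VMH, 354 and 385 in the DMH, and 914 and 1040 in the LH, at least 3.91-fold. *Grm5*, which couples to phospholipase C, gave 1585 and 1803 in the Arc, 7757 and 7046 in the VMH, 4312 and 3590 in the DMH, and 4686 and 4308 in the LH. *Grm3* was highest in the LH, 2.02 ± 0.28 (SE, adjusted p = 0.011) above the VMH, and *Grm5* was highest in the VMH, where its difference from the DMH had an adjusted p of 0.096 by limma. *Grm4* and *Grm7* had ratios of 2.48 and 2.38. *Homer1* had 3 of 4 probes low, the one with the largest difference at a ratio of 2.85 and 1.49 ± 0.22 (SE, adjusted p = 0.02) higher in the VMH than in the DMH.

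Of 17 ionotropic glutamate receptor genes 5 were low (29.4%) and 1 was high, with a median log2 difference of 0.16. *Grin3a*, *Grin2c*, *Gria3*, *Grin2a*, and *Gria1* had ratios of 2.63, 2.70, 2.53, 2.15, and 1.75. The difference in share between the metabotropic and ionotropic lists was not tested. Receptors for monoamines and acetylcholine had 6 low genes of 17 (35.3%) and 0 high genes of 18, and without the VMH arrays 10 of 19 were low (52.6%, against 23.8% of all named genes). *Htr2c*, the serotonin 2C receptor of appetite control, gave 319 and 233 in the Arc, 805 and 392 in the VMH, 2149 and 2862 in the DMH, and 4531 and 4285 in the LH. All 3 of its probes were low in the Arc, its second VMH array came near the Arc, and the VMH was below the DMH by 2.14 ± 0.37 (SE, adjusted p = 0.038) and below the LH by 2.97 ± 0.37 (SE, adjusted p = 0.0083). *Adra2c*, *Adra2a*, *Htr4*, *Htr7*, and *Chrm3* had ratios of 3.06, 2.45, 2.17, 2.04, and 1.77. *Gpr39*, a zinc-sensing receptor outside these lists, gave 294 and 249 in the Arc, 3227 and 4630 in the VMH, 1160 and 1525 in the DMH, and 2951 and 1554 in the LH.

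Potassium channel genes had 15 low genes of 42 (35.7%, against 18.8% of all named genes) and 6 high genes of 47 (against 10.9%). Their median log2 difference was 0.28 over 53 probes. *Kcna1*, the axonal channel Kv1.1, gave 76.8 and 26.4 in the Arc, 2010 and 1846 in the VMH, 238 and 388 in the DMH, and 2436 and 3518 in the LH, at least 10.6-fold against the unmeasured Arc. Its DMH signals were far under those of the VMH and LH, and the LH exceeded the DMH by 3.27 ± 0.51 (SE, adjusted p = 0.045). *Kcnk4*, a leak channel, gave 162 and 200 in the Arc, 1630 and 1910 in the VMH, 512 and 414 in the DMH, and 803 and 835 in the LH, highest in the VMH by 1.94 ± 0.22 (SE, adjusted p = 0.0089) over the DMH and 1.11 ± 0.22 (SE, adjusted p = 0.037) over the LH. *Kcnn2*, a calcium-gated channel, was at least 3.67-fold lower in the unmeasured Arc, and *Kcna2*, *Kcnc1*, and *Kcnab2* had ratios of 3.31, 3.37, and 2.85. The 3 probes of *Kcnc1* differed, with the others at 1.52 and 0.922. Sodium, calcium, and HCN channel genes had 14 low genes of 38 (36.8%, against the same 18.8%) and 7 high genes of 39 (against 10.9%). Their median was 0.12. *Scn1a*, a sodium channel of fast-firing neurons, gave 469 and 602 in the Arc, 1340 and 1362 in the VMH, 1023 and 1127 in the DMH, and 3124 and 2692 in the LH. *Scn1a* was highest in the LH, 1.10 ± 0.21 (SE, adjusted p = 0.034) above the VMH and 1.43 ± 0.21 (SE, adjusted p = 0.04) above the DMH, while *Cacng3*, *Scn8a*, and *Scn2b* had ratios of 2.58, 2.57, and 2.03, and *Scn8a* had 2 of 3 probes low with the remaining one at 0.939.

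Signalling proteins inside the cell were represented by *Gng13*, *Rgs8*, and *Ptk2b* among the highest ranks. *Gng13*, a G protein gamma subunit, gave 692 and 638 in the Arc, 8047 and 10030 in the VMH, 5312 and 6234 in the DMH, and 8663 and 10801 in the LH. *Chtf18*, a subunit of an alternative clamp loader of replication, gave 436 and 431 in the Arc, 4850 and 4235 in the VMH, 2871 and 3445 in the DMH, and 3606 and 5610 in the LH. The genes *Gng13* and *Chtf18* overlap on chromosome 17 in the annotation and each is represented by 1 probe, so which of them a signal belongs to is uncertain. Their means had the same order, LH, VMH, DMH, and Arc from high to low, with a ratio of 12.3 for *Gng13* and 9.46 for *Chtf18*. *Rgs8*, which speeds the shut-off of G proteins, gave 263 and 348 in the Arc, 1790 and 1967 in the VMH, 2962 and 3829 in the DMH, and 5427 and 4838 in the LH, and both of its probes were low. *Ptk2b*, a calcium-dependent tyrosine kinase, gave 123 and 233 in the Arc, measured on 1 array, 5134 and 6083 in the VMH, 1681 and 895 in the DMH, and 496 and 262 in the LH. Its ratio of 13.6 thus rested on the VMH, which exceeded the LH by 3.96 ± 0.47 (SE, adjusted p = 0.0071), and 1 of its 2 probes that could qualify was low.

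Calcium and cAMP signalling enzymes as a list had 23 low genes of 58 (39.7%, against 18.8% of all named genes). They had 4 high genes of 59 (against 10.9%), with a median log2 difference of 0.49 over 87 probes. *Arpp21* and *Camk1d*, a calmodulin-binding phosphoprotein and a calmodulin-dependent kinase, had ratios of 6.21 and 5.82 and were higher in the VMH than in the DMH by 1.65 ± 0.30 (SE, adjusted p = 0.045) and 1.89 ± 0.26 (SE, adjusted p = 0.016). *Plcxd2*, *Plcb1*, and *Rasgrp2* had ratios of 4.04, 3.19, and 3.82, and *Rasgrp2*, an exchange factor that responds to calcium, was higher in the LH than in the VMH by 1.78 ± 0.20 (SE, adjusted p = 0.0066). Of the low genes of this list, 6 were higher in the VMH than in the DMH and 0 the reverse by the adjusted p of limma, where 0.886% and 0.562% of the probes that could qualify were, and 3 were higher in the VMH than in the LH and 2 the reverse, where 1.57% and 2.63% were. Calcium-binding proteins had 7 low genes of 19 (36.8%), or 11 of 20 without the LH arrays (55%, against 22.3% of all named genes), and 3 high genes of 19, among which *Hpca*, *Cabp7*, *Vsnl1*, and *Caln1* were low with ratios of 3.28, 2.90, 2.83, and 2.61, although the other probe of *Hpca* had a ratio of 0.901. *Mir124-2hg*, the host transcript of a neuronal microRNA, gave 227 and 424 in the Arc and 1558 to 4153 on the other arrays.

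**Figure D3:**
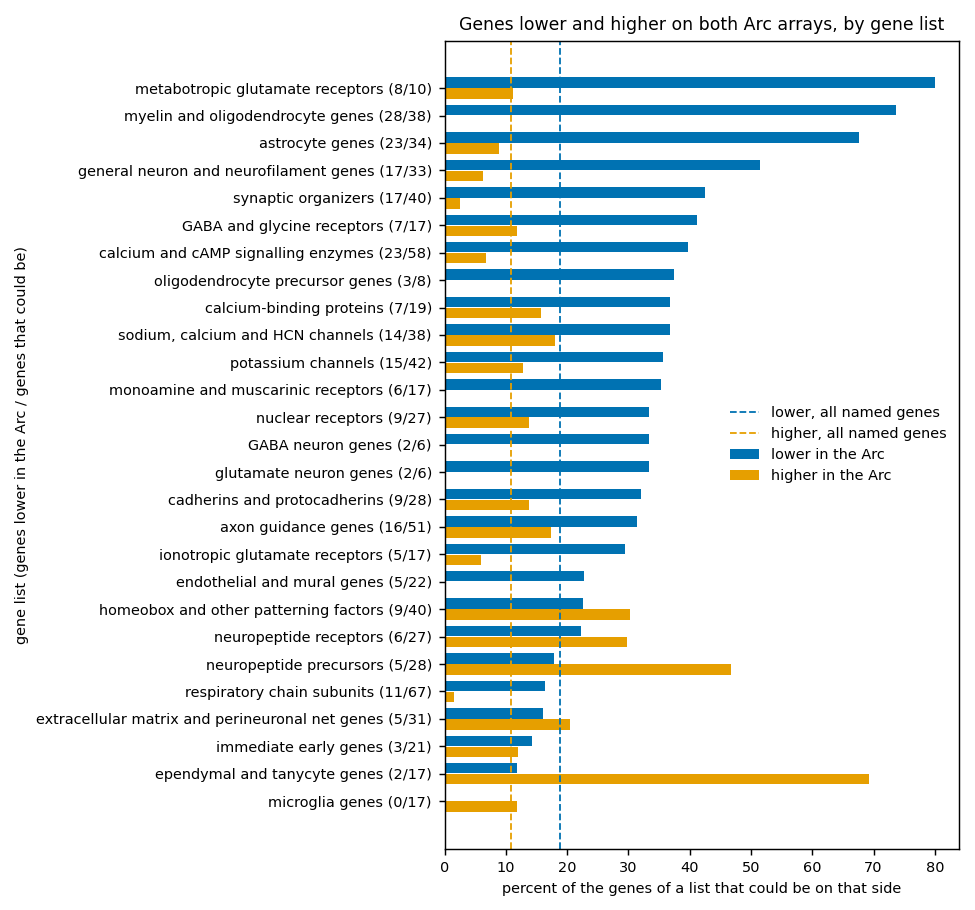
Percent of the genes of each list that were lower (blue) and higher (orange) on both Arc arrays than on all other arrays, out of the genes of the list that could be on that side, with dashed lines at 18.8% and 10.9% for all named genes. Metabotropic glutamate receptor, myelin, and astrocyte genes had the highest shares on the low side, at 80%, 73.7%, and 67.6%, and ependymal and tanycyte genes had 18 of 26 on the high side.

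Genes of myelin and oligodendrocytes were low in the Arc in 28 of 38 cases (73.7%, against 18.8% of all named genes). They were high in 0 of 32 (against 10.9%), with a median log2 difference of 1.36 over 49 probes. *Mobp*, a protein of compact myelin, gave 661 and 364 in the Arc, 1474 and 2320 in the VMH, 1780 and 1509 in the DMH, and 8046 and 10045 in the LH. *Mog*, on the outer face of the sheath, gave 1048 and 646 in the Arc, 2002 and 3058 in the VMH, 1603 and 2436 in the DMH, and 9432 and 14889 in the LH. The LH was highest for both, with *Mobp* 2.28 ± 0.36 (SE, adjusted p = 0.017) and *Mog* 2.26 ± 0.39 (SE, adjusted p = 0.023) above the VMH. *Fa2h*, which hydroxylates the fatty acids of myelin lipids, gave 216 and 76.4 in the Arc, 629 and 673 in the VMH, 421 and 601 in the DMH, and 3362 and 4165 in the LH. *Ermn* had a ratio of 10.2 and was, like *Fa2h*, measured on Arc1 but not on Arc2, and *Tmem88b* had a ratio of 6.76. *Hapln2*, a link protein at the nodes of Ranvier, was at least 3.31-fold lower in the unmeasured Arc. By limma, 22 of the 28 low genes were higher in the LH than in the VMH and 18 were higher in the LH than in the DMH, and 0 were in the reverse direction, where 2.63% and 0.506% of the probes that could qualify were higher in the LH. These counts depended on single VMH and DMH arrays, as given below for all low probes.

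Over the probes of the myelin list the median log2 difference from the Arc was 0.99 in the VMH, 0.73 for the DMH, and 2.51 in the LH. Summed over 10 oligodendrocyte markers, the signal was 20573 on Arc1 and 12571 on Arc2, 33713 and 42345 on the VMH arrays, 30562 and 30491 on the DMH arrays, and 116940 and 124670 on the LH arrays. Of the 10, 8 were low in the Arc, among them *Mbp*, *Mog*, *Mag*, *Mobp*, *Cldn11*, *Ermn*, and *Ugt8a*, *Cnp* was not, and *Opalin* was not measured on VMH1 or in the Arc. The part of this difference in the results for other genes was not tested. *S1pr5*, a sphingosine phosphate receptor of oligodendrocytes, gave 30.6 and 27.4 in the Arc, neither measured, 294 and 409 in the VMH, 431 and 406 in the DMH, and 2998 and 2379 in the LH.

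Astrocyte genes were low in 23 of 34 cases (67.6%, against 18.8% of all named genes) and high in 3 of 34 (against 10.9%). Their median log2 difference was smaller, 0.64 over 47 probes. *Gjb6*, the connexin 30 of astrocytes, gave 2140 and 2722 in the Arc, 6854 and 6966 in the VMH, 6139 and 6257 in the DMH, and 7070 and 7868 in the LH. *Slc6a9*, a glycine transporter, gave 1387 and 1516 in the Arc, 3738 and 4118 in the VMH, 3090 and 3126 in the DMH, and 5488 and 7104 in the LH. *Htra1*, *Cbs*, and *Fgfr3* had ratios of 2.52, 2.50, and 2.12. By limma's adjusted p, 0 of the 23 low genes differed among the other nuclei. Of the probes that could qualify, only 0.0649% to 2.63% did in each direction, so nothing is read from the 0. Among the high genes, *Gfap*, the intermediate filament of astrocytes, gave 3735 and 6337 in the Arc against 1228 to 3109 elsewhere, and *Dio2*, also a tanycyte gene, gave 1712 and 1130 against 171 to 713. Summed over 8 astrocyte markers, of which 5 were low and *Gfap* was high, the signal was 30228 and 37268 on the Arc arrays and 39921 to 60805 on the others.

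Shares in the other cell classes were smaller. Oligodendrocyte precursor genes had 3 low genes of 8 (37.5%), *Pcdh15*, *Cspg4*, and *Lhfpl3*, with ratios of 2.38, 1.42, and 1.35. Endothelial and mural genes had 5 of 22 (22.7%), among them *Flt1* at 2.30 and *Slc2a1* at 1.72, against 18.8% of all named genes, with 8 low without Arc2 or VMH1, where 31.4% and 19.9% of all named genes were. Their markers summed to 6960 and 8043 in the Arc and to 8497 to 17658 elsewhere. Of 17 microglia genes 0 were low and 2 high, and 3 were low without scaling and without DMH1, where 35.2% and 24.1% of all named genes were, and 1 without Arc2, where 31.4% were. Microglial markers summed to 97736 and 94686 in the Arc, 102810 to 116590 in the VMH and DMH, and 78729 and 76340 in the LH, mostly by *Csf1r*. *Csf1r* alone gave 63119 on LH2 to 108110 on VMH1, and the other markers did not share its order. *Cx3cr1*, with 4637 and 6230, and *Tmem119*, with 2674 and 2359, were highest in the LH. *Aif1* was highest on LH2 and *C1qa* in the Arc, and *P2ry12* was measured on 1 array. Ependymal and tanycyte genes ran the other way, with 18 of 26 high, 2 of 17 low (11.8%), and a median log2 difference of -0.65 over 21 probes. The low ones were *Hdc*, the enzyme that makes histamine, best known from tuberomammillary neurons, and *Slco1c1*, a thyroid hormone transporter that endothelial cells also express. The summed signal of 10 ependymal and tanycyte markers was 12116 and 10796 in the Arc and 4554 to 5791 elsewhere, and its part in the lower values of other genes was not tested.

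**Figure D4:**
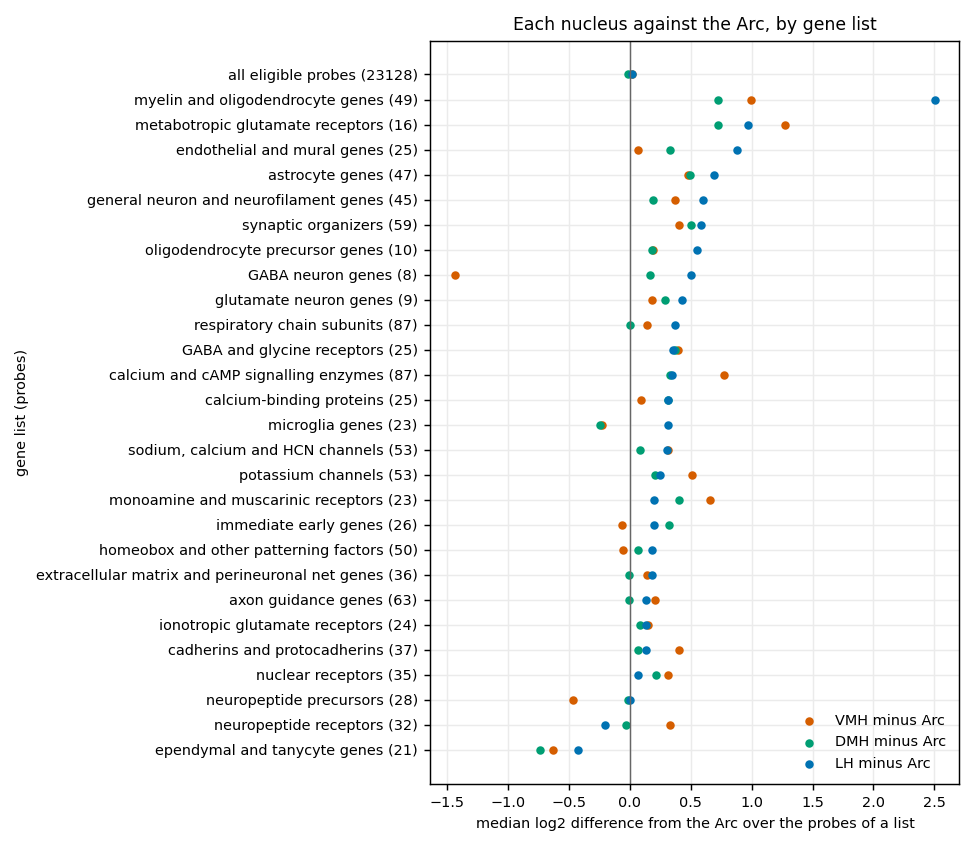
Median log2 difference of the VMH (orange), DMH (green), and LH (blue) from the Arc over the probes of each list measured on all 6 arrays outside the Arc, with the number of probes in parentheses and all 23128 such probes at the top. The myelin list stands at 0.99, 0.73, and 2.51, and the ependymal and tanycyte list lies below 0 in all 3 nuclei.

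General neuronal and neurofilament genes were low in 17 of 33 cases (51.5%, against 18.8% of all named genes). They were high in 2 of 32 (against 10.9%), with a median log2 difference of 0.42 over 45 probes. *Vamp1*, a vesicle protein of fast synapses, gave 4592 and 5268 in the Arc, 25142 and 28256 in the VMH, 14723 and 16647 in the DMH, and 49431 and 65101 in the LH. *Cnr1*, the cannabinoid receptor of axon terminals, gave 1584 and 1492 in the Arc, 13178 and 13903 in the VMH, 5042 and 5838 in the DMH, and 5662 and 5269 in the LH. *Vamp1* was highest in the LH, 1.09 ± 0.22 (SE, adjusted p = 0.04) above the VMH, and *Cnr1* in the VMH, 1.32 ± 0.19 (SE, adjusted p = 0.021) above the DMH. *Nefl*, a neurofilament subunit, had a ratio of 3.52, and *Sv2b* and *Cplx1* had ratios of 3.11 and 3.11. Of 6 neuron markers, 4 were low in the Arc, *Snap25* was not, and *Stmn2* could not qualify because its spot on LH1 was marked as an outlier. Their sum was 120050 and 123140 in the Arc, 200180 and 177870 in the VMH, 130780 and 138900 in the DMH, and 156450 and 151530 in the LH, where the sum of LH1 leaves out *Stmn2*. *Snap25* made up 67037 of the sum on Arc1, and the other 5 markers were each lower on both Arc arrays than on both DMH arrays, as for *Rbfox3* with 2613 and 3725 against 5122 and 6017. Whether the amount of neuronal RNA bears on the low receptor, channel, and synaptic genes was not tested.

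*Slc17a6*, the vesicular glutamate transporter of hypothalamic excitatory neurons, gave 1365 and 1618 in the Arc, 8341 and 10588 in the VMH, 3270 and 5079 in the DMH, and 5101 and 3912 in the LH, with a ratio of 4.06. Of 6 glutamate neuron genes 2 were low (33.3%), and 4 were without VMH2, against 18.8% and 20.6% of all named genes. Of 6 GABA neuron genes 2 were low (33.3%), among them *Abat*, the enzyme that breaks GABA down, with a ratio of 1.32. The GABA list had a median log2 difference of -1.44 for the VMH minus the Arc, 0.16 for the DMH, and 0.50 for the LH. Immediate early genes had 3 low genes of 21 (14.3%, against 18.8% of all named genes), *Bdnf*, *Nptx2*, and *Homer1*, which all encode synaptic or trophic proteins rather than transcription factors, and 6 were low without Arc1, where 24.1% of all named genes were. Extracellular matrix genes had 5 of 31 (16.1%, against the same 18.8%), led by *Hapln2* and followed by *Lama2*, *Sparcl1*, *Tnr*, and *Timp4* with ratios of 1.68, 1.63, 1.51, and 1.33, and 12 were low without Arc2, against 31.4% of all named genes. Respiratory chain subunits had 11 of 67 (16.4%, also near 18.8%), with ratios of 1.19 to 1.72 led by *Cycs*, and 46 of the 67 were low without the scaling, 34 without Arc2, and 21 without DMH1, where 35.2%, 31.4%, and 24.1% of all named genes were.

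Among the VMH, DMH, and LH, the probes low in the Arc were most often highest in the LH. The LH had the highest mean for 1840 of the 2999 probes (61.4%), against 40.9% of all 23128 probes, the VMH for 954 (31.8%, against 34.3%), and the DMH for 205 (6.84%, against 24.8%). The DMH was the lowest of the 3 for 1923 probes (64.1%, against 34.0% of all 23128), the VMH for 760 (25.3%, against 32.4%), and the LH for 316 (10.5%, against 33.5%). By limma with adjustment over all 28894 probes tested, 178 of the 2999 probes (5.94%) were higher in the LH than in the VMH, where 3.04% of all tested probes and 2.63% of those measured on the 6 arrays were. Likewise, 82 (2.73%) were higher in the LH than in the DMH, against 0.664% and 0.506%, and 62 (2.07%) were higher in the VMH than in the DMH, against 1.10% and 0.886%. In the remaining directions, 43 (1.43%) were higher in the VMH than in the LH, against 2.24% and 1.57%, 8 (0.267%) in the DMH than in the VMH, against 0.945% and 0.562%, and 2 (0.0667%) in the DMH than in the LH, against 0.260% and 0.0649%. The requirement that all 6 arrays exceed the Arc bears on which probes could be listed, and the difference between these shares was not tested. Counts also depended on single arrays, since in either direction the 221 probes between the VMH and LH became 17 without VMH1, 32 without VMH2, and 95 to 124 without an Arc or DMH array, the 84 between the DMH and LH became 0 to 5 without a VMH or DMH array and 24 to 31 without an Arc array, and the 70 between the VMH and DMH became 5 to 16 without a VMH or DMH array and 38 without either Arc array. Without the scaling the 221, 84, and 70 became 80, 9, and 21. Over all tested probes the direction depended on the scaling and on single arrays of the LH, VMH, and DMH. Besides the cases below, it turned between the VMH and LH without VMH1, between the VMH and DMH without VMH2 or DMH1, and between the DMH and LH without DMH1. As scaled, 879 probes were higher in the LH than in the VMH and 646 lower, 192 were higher in the LH than in the DMH and 75 lower, and 317 were higher in the VMH than in the DMH and 273 lower. These became 380 and 453, 69 and 98, and 149 and 251 without the scaling. Without LH1 the LH was higher than the VMH for 821 probes and lower for 1168 and higher than the DMH for 312 and lower for 556, and without LH2 these were 1190 and 1554 and 451 and 910. Of the probes low in the Arc, 65 were higher and 15 lower in the LH than in the VMH without the scaling, 174 and 28 without LH1, and 163 and 42 without LH2. Against the DMH, 8 were higher and 1 lower in the LH without the scaling, 118 and 2 without LH1, and 112 and 3 without LH2.

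**Figure D5:**
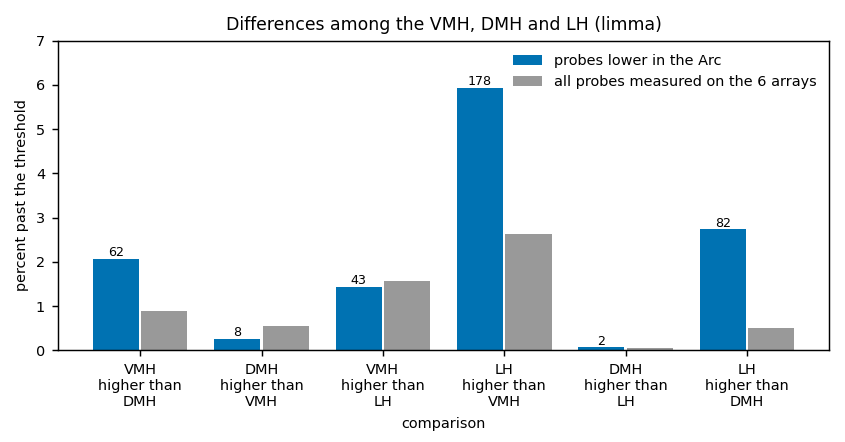
Percent of the 2999 probes low in the Arc (blue, with their number) and of all 23128 probes measured on the 6 arrays outside the Arc (grey) that passed an adjusted p of 0.05 by limma in each direction among the VMH, DMH, and LH. The blue bars exceed the grey ones for the LH over the VMH and the DMH, at 5.94% and 2.73%, and for the VMH over the DMH, at 2.07%.

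Of the 2127 low genes, 62 (2.91%) were past the threshold in the LH above both other nuclei, against 0.769% of the 11318 genes that could qualify, 21 (0.987%) in the VMH, against 0.892%, and 0 in the DMH, against 0.0265%, while 5 (0.235%, against 0.645%) were below both others in the VMH, 3 (0.141%, against 0.0618%) in the DMH, and 0 in the LH, against 0.0442%. The 62 need the LH above the DMH, which few or no low probes passed without a VMH or DMH array. By the smaller of the 2 differences, the largest for the LH were those of *Syt2*, *Adamtsl4*, and *S1pr5*. *Syt2*, a fast calcium sensor of release, gave 129 and 120 in the Arc, neither measured, 338 and 622 in the VMH, 303 and 269 in the DMH, and 4750 and 2870 in the LH, and the LH exceeded the VMH by 3.01 ± 0.36 (SE, adjusted p = 0.0074) and the DMH by 3.69 ± 0.36 (SE, adjusted p = 0.015). *Adamtsl4*, a secreted matrix-associated protein, gave 116 and 43.0 in the Arc, neither measured, and 127 to 225 in the VMH and DMH, where the LH gave 1344 and 1357. For *S1pr5* the LH exceeded the VMH by 2.94 ± 0.24 (SE, adjusted p = 0.0022) and the DMH by 2.68 ± 0.24 (SE, adjusted p = 0.013). In the VMH the largest by the same measure were those of *Adcyap1*, *Tafa1*, and *Myh8*. *Myh8*, a myosin heavy chain of developing muscle, gave 267 and 381 in the Arc, 3117 and 4119 in the VMH, 675 and 941 in the DMH, and 509 and 515 in the LH, with the VMH 2.17 ± 0.28 (SE, adjusted p = 0.014) above the DMH and 2.81 ± 0.28 (SE, adjusted p = 0.004) above the LH. Of 74 differences among the VMH, DMH, and LH that passed the threshold in the named genes, 12 passed it on leaving out each of the 8 arrays in turn. They were those of *Hcrt* in the VMH from the DMH and from the LH, of *Pmch*, *Htr2c*, *Zic1*, *S1pr5*, *Syt2*, *Adcyap1*, and *Myh8* between the VMH and LH, and of *Hcrtr1*, *Nptx2*, and *Tafa1* between the VMH and DMH, and the other differences of named genes given here lost the threshold without at least 1 array. By the Tukey-Kramer test that the methods name, with the same adjustment over probes, 0 of the 74 passed.

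Agreement between probes of a gene was limited. Of the low genes, 697 had more than 1 probe that could qualify, and for 178 of them (25.5%) every such probe was low, whereas for 150 at least 1 such probe was not lower in the Arc on average. Genes with all of their probes low included *Htr2c* with 3 and *Nr2f1*, *Nptx2*, *Rgs8*, and *Cckbr* with 2 each, and *Pmch*, *Hcrt*, and *Nr2f2* had a single probe. *Thra*, *Ntsr2*, *Grin2a*, *Pcdh15*, and *Lhfpl3*, given above by 1 probe, had a further probe that was lower in the Arc on average but did not meet the rule. In the myelin list, 27 of the 28 low genes had every probe that could qualify low, and in the astrocyte list 20 of 23. These counts include genes with a single such probe, which agree by definition, so they do not compare with the 25.5%. The 28 myelin genes had 34 low probes and the 23 astrocyte genes had 30.

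Promoter sequences were read from RefSeq for GRCm38.p6, in windows of 300 bases that run from 250 bases before to 50 bases after an annotated start of a gene. Of the 2127 low genes 1670 had a window, 2269 windows in all, and of the 20 genes with the largest shortfall 15 had one. The letters searched, chosen with the values of the genes known, were TATAAA on the strand of the gene, AGGTCA on either strand, as in the elements that nuclear receptors of the COUP-TF and retinoid kind bind, and TGACGT on either strand, as in the cAMP response element. TATAAA was in 4.32% of the windows of low genes, 4.71% of those of all genes that could qualify, and 8.32% of all 32851 windows. AGGTCA was in 12.3%, 12.4%, and 16.3%, and TGACGT in 9.70%, 11.0%, and 7.51%. For low genes with a ratio of at least 2 the shares were 4.51%, 11.7%, and 6.34%, and in the 22 windows of the low myelin genes the letters were in 2, 1, and 2 windows in the same order. These differences were not tested. Windows of low genes had a median of 20 CpG dinucleotides, as did those of the genes that could qualify. Those of low genes with a ratio of at least 2 had a median of 15. The 22 myelin windows came from 16 of the 28 low myelin genes and had a median of 5.5.

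The windows below are those of members with a large shortfall that held one of these sets of letters, which are in capitals, and they are shown because *Pmch*, *Hcrt*, and *Gabrb2* have TATAAA within 27 to 33 bases before the start, *Rgs8* has AGGTCA, and *Adcyap1*, with its VMH signal, and *Mog*, a myelin gene low in CpG, have TGACGT. A match of letters is a description and not a binding site.

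Pmch: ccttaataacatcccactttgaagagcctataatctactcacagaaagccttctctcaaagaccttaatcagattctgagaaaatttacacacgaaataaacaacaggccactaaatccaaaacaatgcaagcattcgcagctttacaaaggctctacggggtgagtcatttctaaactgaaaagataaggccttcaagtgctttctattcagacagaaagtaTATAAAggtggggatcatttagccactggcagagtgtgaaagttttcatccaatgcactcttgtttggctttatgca
Hcrt: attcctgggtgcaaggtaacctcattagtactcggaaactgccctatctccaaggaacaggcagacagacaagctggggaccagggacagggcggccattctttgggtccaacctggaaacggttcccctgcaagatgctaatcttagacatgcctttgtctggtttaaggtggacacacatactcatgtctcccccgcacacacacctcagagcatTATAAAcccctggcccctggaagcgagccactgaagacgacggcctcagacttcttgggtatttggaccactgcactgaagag
Gabrb2: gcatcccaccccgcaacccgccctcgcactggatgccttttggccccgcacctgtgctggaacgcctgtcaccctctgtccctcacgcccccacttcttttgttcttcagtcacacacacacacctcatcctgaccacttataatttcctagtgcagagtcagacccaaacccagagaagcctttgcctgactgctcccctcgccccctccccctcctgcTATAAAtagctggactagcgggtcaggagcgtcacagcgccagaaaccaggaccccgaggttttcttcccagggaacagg
Rgs8: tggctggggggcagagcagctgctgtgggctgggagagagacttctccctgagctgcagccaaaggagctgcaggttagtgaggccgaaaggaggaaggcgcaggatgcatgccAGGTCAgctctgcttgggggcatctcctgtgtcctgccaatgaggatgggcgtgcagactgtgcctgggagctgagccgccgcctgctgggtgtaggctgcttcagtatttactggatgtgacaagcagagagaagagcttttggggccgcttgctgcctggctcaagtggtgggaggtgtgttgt
Adcyap1: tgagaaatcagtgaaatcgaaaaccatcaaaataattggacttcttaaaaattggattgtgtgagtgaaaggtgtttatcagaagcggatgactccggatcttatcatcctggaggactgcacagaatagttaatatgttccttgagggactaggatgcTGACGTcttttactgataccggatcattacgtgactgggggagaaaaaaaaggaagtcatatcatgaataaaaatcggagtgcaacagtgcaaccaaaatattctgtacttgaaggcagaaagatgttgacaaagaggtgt
Mog: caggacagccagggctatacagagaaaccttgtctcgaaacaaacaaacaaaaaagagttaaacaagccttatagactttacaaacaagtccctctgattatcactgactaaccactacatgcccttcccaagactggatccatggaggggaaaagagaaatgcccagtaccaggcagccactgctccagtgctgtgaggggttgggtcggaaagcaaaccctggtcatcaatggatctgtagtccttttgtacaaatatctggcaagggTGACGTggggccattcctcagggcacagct

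The windows of *Pmch* and *Hcrt*, the genes with the largest ratios, were at chr10:88090822-88091121 on the plus strand and chr11:100762882-100763181 on the minus strand, with 3 and 7 CpG dinucleotides. That of *Gabrb2* was at chr11:42420190-42420489 (plus strand) and was 1 of 3 windows of the gene, that of *Rgs8* at chr1:153665423-153665722 (plus strand) and 1 of 3, that of *Adcyap1* at chr17:93198767-93199066 (plus strand) and 1 of 2 that both hold TGACGT, and that of *Mog* at chr17:37023349-37023648 (minus strand), where the match lies after the start. The *Nr2f2* window held none of the 3 sets of letters.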

How the data were processed

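Probes, genes, and gene lists described here were chosen with earlier results of these data known, so no count over them is independent support. RNA of laser-microdissected nuclei was measured on 8 one-color Agilent arrays, 2 per nucleus, on 1 slide. The authors deposited an intensity for every spot from Agilent Feature Extraction (version 10.7.3.1 in the file headers, 11.5.1.1 in the submitters' processing notes), after background subtraction and spatial detrending, with the lowest signals set to a minimum and no scaling between arrays. The dye is Cy3 in the labels but Cy5 in the methods, and red-channel values were found in the files. The authors' combined table, with these intensity values averaged per probe and rounded, served as an alternative.

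Outlier spots were omitted and the remaining spots averaged per probe. Signals were scaled by their array's 75th percentile (815 on Arc1 to 1239 on VMH2, rescaled to a geometric mean of 1), and log2 was taken. A probe was called well above background when at least 50% of its spots were, and the lowest such signal was 79.3 to 132 per array. The number of arrays limits the precision. Differences among the VMH, DMH, and LH were tested with limma 3.58.1 in R 4.3.3 on all 8 arrays with a mean per nucleus, over 28894 probes measured in duplicate in 1 or more nuclei. The test was two-sided, with 4 residual and 3.02 prior degrees of freedom, and Benjamini-Hochberg adjusted p-values had a threshold of 0.05. The fit and the rule were tested on simulated data. Of 28390 probes with a RefSeq accession, 26762 (94.3%) were named through the GRCm38.p6 annotation, used for names and promoter sequences only, since the sources used here give no genome build for the array.

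Genes named are the 20 with the largest log2 shortfall in the Arc (dim Arc signals raised to the lowest measured one, 1 probe per gene), up to 6 per list, the 3 with the largest difference in each of the other nuclei, the 2 probes on each side of the edge of the rule, and cell type markers. Alternatives were other scalings, background corrections, filters, and tests, the replicate block, leaving out each array, and, chosen after seeing the data, leaving out the arrays of a nucleus. Some named genes are not reported here.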

Additional observations from a re-analysis of the deposited data

How the results depend on the processing

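The count of 2999 probes low in the Arc stayed within 1.5 times under quantile normalization, normexp, the deposited table, outlier spots kept, other filters, raised dim signals, and the rule without the VMH or LH arrays. It was 5742 without scaling, 4505 without the DMH arrays, 867 and 180 with a minimum of 2-fold and 4-fold, and 352 and 50 with the lowest other nucleus as the reference at these minimums, which select fewer probes by construction. Leaving out 1 array gave 3271 to 5250, where the relaxed rule can only add probes. By limma 590 probes differed between the VMH and DMH, 1525 between the VMH and LH, and 267 between the DMH and LH. Leaving out 1 array gave 194 to 867, 398 to 2744, and 41 to 1361, where the lone array of a nucleus was assumed to vary like the others. The fit without the Arc arrays gave 383, 909, and 140, and the Tukey-Kramer test of the methods gave 3, 3, and 0. Without scaling the VMH and LH differed for 833 probes and the DMH and LH for 167, without a filter on dim probes for 959 and 118, and with trended and robust moderation the DMH and LH differed for 413. Causes were not tested. With the replicate block, 3878 probes were low in the Arc, and 496, 1425, and 161 differed among the other nuclei. The replicate numbers coincide with the rows of the slide, and deviations of same-numbered arrays correlated at -0.03 to 0.26, so the numbers were not taken to pair the samples. Every shortfall of the 142 named probes kept its sign without scaling and under quantile normalization, normexp, the deposited table, outlier spots kept, and raised dim signals. On leaving out 1 array the sign was fixed by the rule that chose the probes. Of 74 named differences among the other nuclei, those lost were 38 without scaling, 29 without a filter, 20 with the block, 0 with normexp, and 74 with Tukey-Kramer. The difference of *Adcyap1* between the DMH and LH, not past the threshold, ranged from -0.0031 without LH1 to 0.28 without LH2. Of 540 list counts under the alternatives, 503 were within 1.5 times. Exceptions without scaling, beside those given above, were synaptic organizers at 28, glutamate neuron genes at 4, cadherins at 14, ionotropic glutamate receptors at 8, and extracellular matrix and neuropeptide precursor genes at 9 each. The rule without the arrays of a nucleus, which keeps every low probe by construction, gave 22 low patterning factors, 13 neuropeptide precursors, 10 monoamine and muscarinic receptors, 9 endothelial genes, and 4 genes each of the glutamate and GABA lists without the VMH, 31 respiratory chain, 10 extracellular matrix, and 3 microglia genes without the DMH, and 11 calcium-binding, 9 extracellular matrix, and 1 microglia genes without the LH. Of all named genes, 35.2% were low without scaling, and 23.8%, 27.8%, and 22.3% without the arrays of the VMH, DMH, and LH. The remaining exceptions were 1 GABA neuron gene and 8 extracellular matrix genes with quantile normalization, 8 extracellular matrix genes and 1 microglia gene with the block, and 3 neuropeptide precursors measured on all 8 arrays, where 19.4%, 24.1%, and 2007 of 11136 of all named genes were low. Dim signals limit ratios for the 157 probes not measured in the Arc.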
